A study of Mus musculus with 20 samples.

Results

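Contacts between restriction fragments in mouse induced pluripotent stem (iPS) cells were set against those in embryonic stem (ES) cells. They were counted by chromosome conformation capture carbon copy (5C), in which a product forms from a pair of primers when the HindIII fragments they match had been ligated to each other after fixation. The comparison rests on 2 iPS and 2 ES libraries, 4 of the 10 5C libraries in a series of 20 libraries. Its members were the pairs of a forward and a reverse primer within 1 of 7 regions that averaged at least 10 counts over the 10 libraries. Of 97243 possible pairs, 96467 had a count and 75889 (78.7%) were kept.

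The iPS cells were made from primary neural progenitor cells (NPC) of whole brains at postnatal day 1, with the genotype Sox2-eGFP and the strain 129SvJae x C57BL/6. They were kept on inactivated feeder fibroblasts in KO DMEM with 15% FBS and the cytokine LIF, and then on gelatin to remove the feeders. V6.5 ES cells, male and of the same strain, were grown on feeders and then gelatin in a pluripotency medium with LIF whose label does not state serum. Their labels give no Sox2-eGFP allele, so the reporter, the line, the medium and the reprogramming cannot be told apart in this comparison. The labels name neither the reprogramming factors nor the number of clones or animals behind the iPS libraries. Both kinds of cell were also grown in 2i, a serum-free medium with LIF and the kinase inhibitors CHIR99021 and PD0325901, and the NPC were measured as well. No label says that replicates came from separate cultures, and p-values here reflect just the spread between these libraries, which may be technical.

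In pluripotent cells the genes Pou5f1 (Oct4), Sox2, Nanog and Klf4 encode transcription factors that hold the cells undifferentiated, and each is contacted by enhancers of its own neighbourhood. Sox2 is also used by neural progenitors, through other enhancers, and a cluster of enhancers downstream of the gene drives it in ES cells. Olig1 and Olig2 encode factors of the oligodendrocyte lineage, and Nes encodes nestin, an intermediate filament of neural progenitors. Reprogramming resets the expression of such genes, and 5C shows which fragments lie near each other in the reprogrammed nucleus. A lower count can come from fewer cells with a contact or from a rarer contact in each cell, and bulk libraries cannot tell these apart.

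The iPS libraries held 12.2M and 12.9M counts, against 26.5M and 25.8M in the ES libraries, and the other 6 held 10.5M to 14.9M. Within a region lay 80.6% to 91.8% of the counts of the 10 libraries. A single pair in the Oct4 region took 7.64% and 4.45% of the iPS counts and 6.71% and 8.37% of the ES counts. Replicates differed by more than counting error in every group, with a chi-square per degree of freedom of 10.7 in iPS and 13.6 in ES cells. Each count was compared with an expected count, the mean share of that pair within its region and distance stratum over the 10 libraries times the total of that stratum in the library. A ratio of 1 is therefore the mean of the 10 libraries. A second version of the expected count was also balanced so that every primer has its own library total, which takes out differences that belong to a primer as a whole.

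At equal region and distance, 2957 pairs were higher and 1123 lower in iPS than in ES cells, 5.38% of the 75889 tested (edgeR quasi-likelihood F test, Benjamini-Hochberg adjusted p below 0.05). With counts summed over 20 kb bins, 751 bin pairs were higher and 280 lower, 9.44% of 10916. Once primers were balanced, 5 pairs were higher and 10 lower (0.0198%), and 8 bin pairs were higher and 11 lower (0.174%). Of the 4080 pairs called before balancing, 3236 had the same direction after it, as had 851 of the 1031 bin pairs. The direction was the same for all 10 pairs and all 13 bin pairs called in both versions, though both use the same counts. The median size of the difference over the bin pairs called before balancing was 0.93 on the log2 scale, and the same bin pairs had a median of 0.20 after it. With a scaling by the median of ratios in place of stratum totals, chosen after seeing the data, 281 bin pairs were higher and 456 lower, with the median over all bin pairs at -0.08 against 0.13. The balance of higher and lower bin pairs called before balancing thus turned with the scaling. Single pairs kept more higher than lower calls with median scaling, at 2069 and 1701.

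By region, the Sox2, Olig and Oct4 regions had the highest share of bin pairs called before balancing. These were 98 higher and 34 lower in the Sox2 region (10.4%), 124 and 54 in the Olig region (10.6%) and 297 and 116 in the Oct4 region (10.5%). The Klf4 region had 68 higher and 19 lower (6.93%), and the gene desert, a negative control region without genes, 2 and 2 (7.27%). This order did not hold for single pairs before balancing, where the gene desert had the highest share, 8.39%. The Olig region had 7.26% of its pairs called, the Oct4 region 5.99% and the Sox2 region 3.14%. After balancing, the Sox2 region had 4 higher and 5 lower bin pairs and the Olig region 2 and 4. The Oct4 and Nanog regions had 1 higher and 1 lower each, and the Nestin, Klf4 and gene desert regions had 0. These counts are from all 4 libraries, and a fit without 1 of them leaves 1 library in a group. Before balancing, 689 bin pairs were called without iPS replicate 1, 176 without iPS replicate 2, 186 without ES replicate 1 and 174 without ES replicate 2. After balancing, 1 bin pair was called whichever of the 4 libraries was left out. Each time it was the same one, in the Olig region (chr16:90731387-90751386 with the next bin), and the other 18 lost their call.

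**Figure D1:**
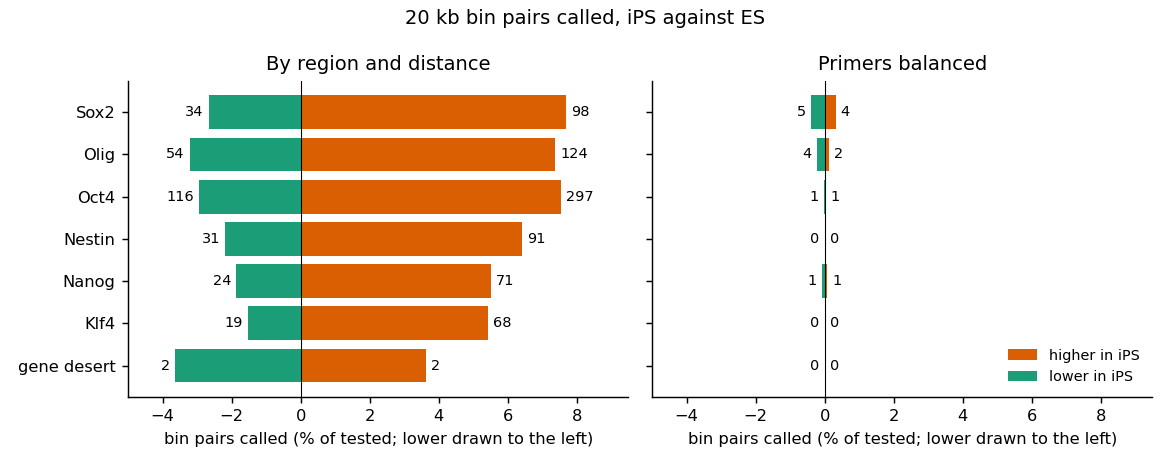
Share of tested 20 kb bin pairs called higher (orange, to the right) or lower (green, to the left) in iPS than in ES cells in each region, in percent, at equal region and distance (left panel) and with primers balanced (right panel). Figures at the bars are numbers of bin pairs, and the 1031 calls of the left panel stand against 19 in the right panel.

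Single primers differed between the iPS and ES libraries over all their contacts. The totals per primer were added after seeing the data, and 223 of 1544 primers were higher and 139 lower in iPS cells (23.4%). Of the pairs called before balancing, 90.4% held at least 1 called primer, against 42.8% of all pairs tested. The 3 primers with the largest difference were nearly absent from both ES libraries and present in the other 8. A fragment in the Nanog region (mm9 chr6:122291909-122293427) had ratios of 1.29 and 1.86 in iPS cells, against 0.0238 and 0.0217 in ES cells, a log2 difference of 6.09 ± 0.41 (SE, adjusted p = 5.56e-06). Both libraries of ES cells in 2i had 0.92 and 1.65 at the same primer.

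A fragment within Arhgef11, which encodes a guanine nucleotide exchange factor, had ratios of 1.45 and 1.49 in iPS cells and 0.0308 and 0.0404 in ES cells. It lies at chr3:87423370-87424260 in the Nestin region and differed by 5.35 ± 0.32 (adjusted p = 3.34e-06). In the Olig region, chr16:91318837-91324345 had ratios of 1.05 and 1.08 in iPS cells and 0.0415 and 0.0432 in ES cells, a difference of 4.65 ± 0.15 (adjusted p = 1.53e-08). At these 3 primers both ES libraries lay far below all 8 others, iPS included. The opposite pattern was seen at 4 Olig region primers, whose differences were -1.83, -1.48, -1.45 and -1.39. The lowest of them, at chr16:90916300-90916640, had ratios of 0.472 and 0.420 in iPS cells, against 1.63 and 1.55 in ES cells and 0.855 to 1.08 in the other 6 libraries. There the iPS libraries were below all others and the ES libraries above all others.

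Over all 1544 primers, chosen or not, both ES libraries lay outside the range of the other 8 libraries at 37.2%, both NPC libraries at 21.0% and both iPS libraries at 8.55%. The ES libraries thus stood apart at more primers than the libraries of any other group. Of the 10916 bin pairs before balancing, both NPC libraries lay outside the range of the others at 26.7%, both ES libraries at 22.2% and both iPS libraries at 7.88%. After balancing it was 35.7% for NPC, 11.05% for iPS and 7.94% for ES cells. Whether the primer differences come from the libraries or from the cells was not tested, and they bear on every value given before balancing.

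**Figure D2:**
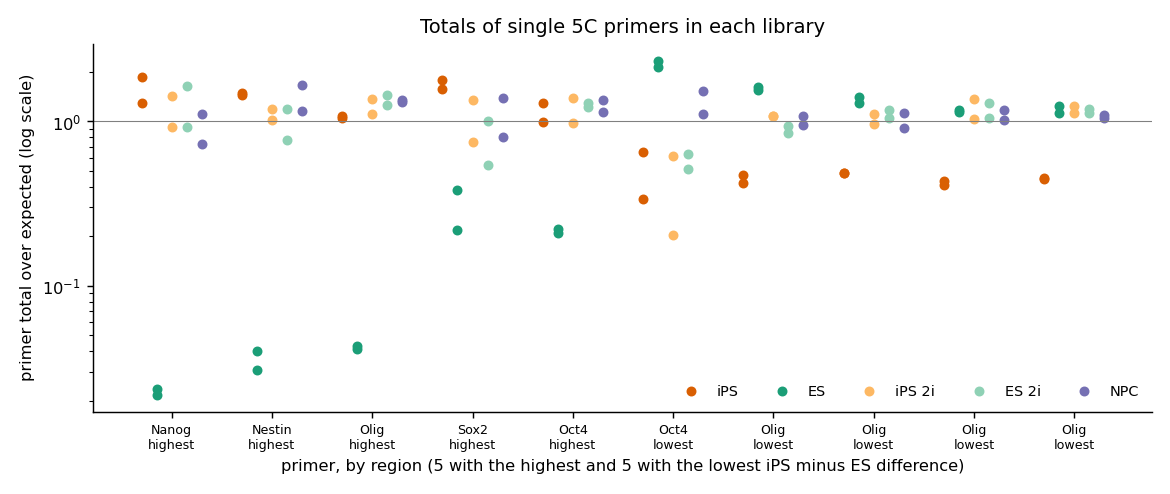
Total of a primer over its expected total (log axis) in each of the 10 libraries, for the 5 primers with the highest and the 5 with the lowest iPS minus ES difference, named by region. Points are libraries, coloured by group. At the 3 leftmost primers the ES libraries lie between 0.0217 and 0.0432 and the others between 0.727 and 1.86, and at the 4 rightmost ones the iPS libraries lie between 0.411 and 0.488.

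In the Sox2 region, the bin that holds the start of Sox2 (chr3:34547374-34567373) had lower balanced ratios in iPS than in ES cells over a stretch downstream. Within that stretch only the bin at 80 kb was called. Balanced ratios with some bins farther away were higher in iPS cells. With the bin 80 kb downstream, the balanced ratio was 0.777 and 0.829 in iPS cells, against 1.24 and 1.13 in ES cells. Both iPS libraries lay under both ES libraries, and the difference was -0.56 ± 0.08 (SE, log2; adjusted p = 0.0245). The NPC libraries, from the cells the iPS cells were made from, had 0.549 and 0.520 there, and differed from ES cells by -1.15. Before balancing, the difference between iPS and ES cells was 0.22 (adjusted p = 0.511), so this call depends on the balancing.

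The nearer bins on the same side had the same order of libraries without passing the test. At 40 kb the balanced ratios were 0.808 and 0.823 in iPS and 1.04 and 0.960 in ES cells (adjusted p = 0.0800), and at 60 kb 0.797 and 0.913 in iPS and 1.18 and 1.10 in ES cells (adjusted p = 0.0697). The bin 100 to 120 kb downstream covers the enhancer cluster that drives Sox2 in ES cells. Counts with it were 3483 and 3412 in iPS cells and 8780 and 6905 in ES cells, with the ES libraries sequenced more deeply. Their balanced ratios were 0.865 and 0.824 in iPS cells and 1.15 and 0.935 in ES cells, a difference of -0.31 ± 0.09 (adjusted p = 0.172). NPC had 0.541 and 0.501. The groups did not overlap, but the difference did not pass the test, and without ES replicate 1 it was -0.15. In 2i, iPS minus ES cells was -0.08.

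A called pair of fragments lay beside these places. The fragment chr3:34542978-34546430, which ends upstream of the Sox2 start at 34548927, and a fragment 119.6 kb away at chr3:34663894 had 140 and 214 counts in iPS cells and 646 and 746 in ES cells. It differed by -1.37 after balancing (adjusted p = 0.0103) and by -0.92 before it (adjusted p = 0.142). This pair was singled out after its values were seen, as were the remaining called bin pairs around Sox2. The bin pair that contains it, the bin upstream of the Sox2 bin with that of the enhancer cluster, fell by 0.48 (adjusted p = 0.0317), and was at -0.17 before balancing (adjusted p = 0.493).

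Farther away, some contacts of the Sox2 bin were higher in iPS cells. With the bin 160 kb downstream, the balanced ratio was 1.19 and 1.21 in iPS cells and 0.903 and 0.858 in ES cells, a difference of 0.45 ± 0.08 (adjusted p = 0.0457), and it was 0.75 before balancing (adjusted p = 0.0114). With the bin 340 kb upstream (chr3:34207374-34227373), it was 1.27 and 1.20 in iPS cells and 0.681 and 0.808 in ES cells. That difference was 0.73 ± 0.12 (adjusted p = 0.0317), and NPC differed from ES cells by 1.06. In both cases the iPS libraries lay above the ES libraries without overlap, and for the upstream bin also under both NPC libraries, at 1.67 and 1.43. For the upstream bin, lack of overlap with the ES libraries was a condition of the rule by which it was named. Of the 50 bin pairs of the Sox2 start, 14 were higher and 0 lower before balancing, and 2 were higher and 1 lower after it. The bin of the enhancer cluster also rose with bins 60 and 100 kb farther downstream, by 0.57 and 0.58 (adjusted p = 0.0281 and 0.0318), neither of which was called before balancing.

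**Figure D3:**
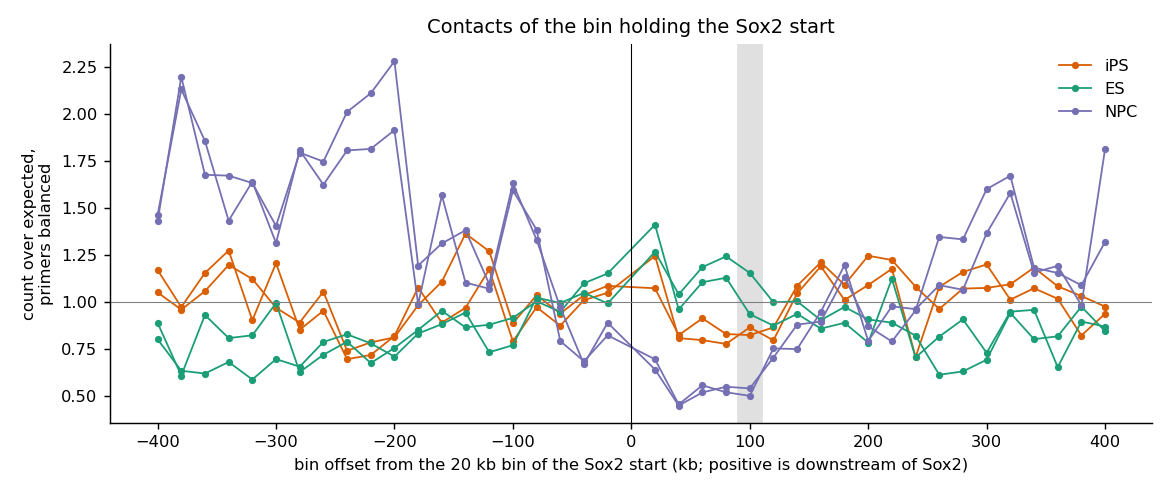
Balanced ratio of observed to expected counts between the 20 kb bin of the Sox2 start and bins up to 400 kb on either side, 1 line per library of iPS, ES and NPC. The grey band marks the bin 100 kb downstream, and from 40 to 100 kb both iPS lines run under both ES lines and above the NPC lines, as in the values of 0.777 and 0.829 against 1.24 and 1.13 at 80 kb.

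Contacts across each 20 kb boundary were summed over pairs that reach at most 100 kb to each side, which gives overlapping sums that are not independent of each other. Over 359 boundaries, 60 were higher and 34 lower in iPS cells before balancing (26.2%), and 25 higher and 17 lower after it (11.7%). Around Sox2, the 3 boundaries 18.4, 38.4 and 58.4 kb downstream of the start were lower after balancing, by 0.22, 0.25 and 0.21 (adjusted p = 8.06e-04, 0.00257 and 0.00960). At the first, the ratios were 0.930 and 0.939 in iPS cells, 1.10 and 1.07 in ES cells, and NPC were lower than ES cells by 0.99. The 3 boundaries 118, 138 and 158 kb downstream were higher, by 0.17, 0.14 and 0.21 (adjusted p = 0.00756, 0.0257 and 0.00132). None of these 6 was called before balancing, where the differences ran from -0.19 to 0.03. In 2i, iPS minus ES cells ran from -0.06 to -0.02 at the same 6 boundaries, and the difference from 2i was itself called at 3 of them.

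Both boundary counts changed when a library was left out. Such a fit leaves 1 library in a group, so a lost call does not show that it rested on the library left out. After balancing, 12 boundaries of the 7 regions were called without iPS replicate 1, 8 without iPS replicate 2, 8 without ES replicate 1 and 9 without ES replicate 2. Before balancing, 98 were called without iPS replicate 1, 13 without iPS replicate 2, 40 without ES replicate 1 and 8 without ES replicate 2.

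**Figure D4:**
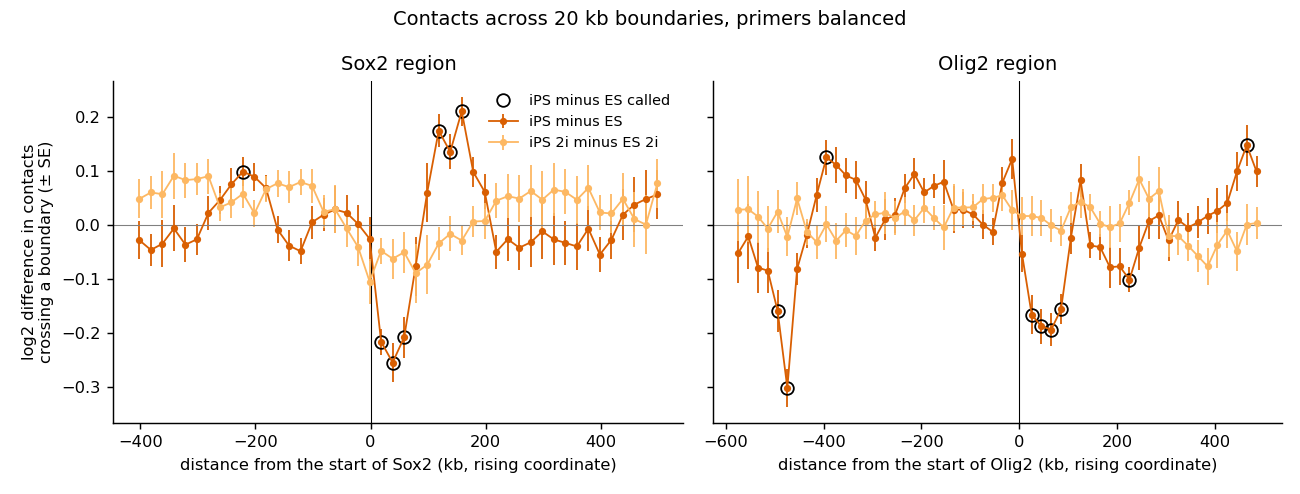
Difference in contacts that cross a 20 kb boundary, on the log2 scale with primers balanced, for iPS minus ES (dark) and iPS 2i minus ES 2i (light) cells, by distance from the start of Sox2 (left) and of Olig2 (right). Bars are standard errors of the fit over 10 libraries and circles mark called boundaries. The iPS minus ES line dips to -0.25 downstream of Sox2 and to -0.19 downstream of Olig2, and the 2i line stays near 0 at both places.

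A second pattern in the Sox2 region belonged to 1 fragment and to the ES libraries. The pair of chr3:34900011-34902586 with chr3:34450023-34455379, 449 kb apart, had 38 and 34 counts in iPS cells, against 1295 and 1366 in ES cells, and 33 to 54 in the other 6 libraries, ES cells in 2i included. It was the largest fall among pairs called in both versions, at -3.68 ± 0.23 after balancing (adjusted p = 1.62e-06). The same fragment at chr3:34450023 was in 2 further called pairs, with -2.16 and -2.17. The 3 called bin pairs that hold it fell by 0.54, 0.73 and 1.11, with spans of 240, 440 and 500 kb. These contacts were high in both ES libraries, and the iPS libraries did not stand apart from the rest. Rising instead, the pair of the fragments at chr3:34204379 and chr3:34647236 had 261 and 202 counts in iPS cells, against 105 and 122 in ES cells, a difference of 1.80 (adjusted p = 0.0155).

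In the Olig region, contacts around Olig2 were lower in iPS than in ES cells on the side that faces Olig1. Between the bins of the Olig2 start (chr16:91211387-91231386) and of Olig1 (chr16:91251387-91271386), counts were 2200 and 2398 in iPS cells and 5886 and 5872 in ES cells. The balanced ratios were 0.686 and 0.631 in iPS cells, under 0.940 and 0.899 in ES cells, a difference of -0.48 ± 0.07 (adjusted p = 0.0245). NPC differed from ES cells in the other direction, by 0.52, with 16551 and 14960 counts. Before balancing the difference was -0.37 and did not pass the test (adjusted p = 0.149), and in 2i it was 0.04. Of 21 alternatives, which include many fits without balancing, 18 lost this call. Among them were the fits without any one of the 4 libraries, and the difference stayed below 0 in all 21.

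The bin of Olig2 with one 120 kb beyond it had balanced ratios of 0.835 and 0.740 in iPS cells and 1.19 and 1.10 in ES cells, a difference of -0.54 ± 0.08 (adjusted p = 0.0245). It was also called before balancing, at -0.73 (adjusted p = 0.00616), with both iPS libraries below the other 8 in either version. Lying below the ES libraries was a condition of the rule by which it was named. The 4 boundaries from 25.6 to 85.6 kb past the Olig2 start were lower, by 0.17, 0.19, 0.19 and 0.16 (adjusted p = 0.0185, 0.00756, 0.00392 and 0.00756). NPC were above ES cells at the same 4 boundaries, by 0.37, 0.25, 0.26 and 0.11. None of the 4 was called before balancing. Of 58 bin pairs each, Olig1 had 10 higher and 0 lower before balancing and 0 and 1 after it, and Olig2 had 0 and 1 before and 0 and 2 after it.

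Farther along the Olig region, the boundary 474 kb before Olig2 had the largest fall of all called ones, with ratios of 0.843 and 0.865 in iPS cells and 1.08 and 1.03 in ES cells, a difference of -0.30 (adjusted p = 8.06e-04). The bin pair across it, chr16:90731387-90751386 with the next bin, fell by 0.82 (adjusted p = 6.32e-05), the smallest adjusted p among the bin pairs after balancing, and it was -0.67 before it (adjusted p = 0.00864). Its ratios were 0.576 and 0.627 in iPS cells, below the other 8 libraries, and 1.11 and 1.02 in ES cells. The bins at chr16:90671387 and chr16:90731387 had ratios of 0.653 and 0.605 in iPS cells and 1.09 and 0.947 in ES cells, a difference of -0.69 (adjusted p = 0.0390). Higher in iPS cells were the bins at chr16:90751387 and chr16:91311387, 560 kb apart, with 1.44 and 1.39 in iPS and 0.866 and 0.831 in ES cells (0.73, adjusted p = 0.0457). The bins at chr16:90811387 and chr16:90851387 had 1.27 and 1.30 in iPS and 0.895 and 0.916 in ES cells (0.51, adjusted p = 0.0308). In each of these 4 pairs of bins the 2 iPS libraries lay to one side of the 2 ES libraries. This was a condition for naming them, except for chr16:90731387 with the next bin, which was not named by rule.

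Single pairs of the Olig region were called in both directions. The fragments at chr16:91242595 and chr16:91253756, between Olig2 and Olig1, had 728 and 1013 counts in iPS cells, against 397 and 320 in ES cells. NPC had 1 count in each library at this pair, and the difference of 1.41 ± 0.17 between iPS and ES cells was called (adjusted p = 0.00295). The pair of neighbouring fragments at chr16:90732771 and chr16:90725608 had 119 and 245 counts in iPS cells and 1208 and 900 in ES cells (-0.91 after balancing, adjusted p = 0.0485). It was the largest fall of the region before balancing among pairs called in both versions. After balancing the largest was that of the neighbouring fragments at chr16:90752205 and chr16:90749960, with 658 and 930 counts in iPS cells and 4406 and 3394 in ES cells (-1.66, adjusted p = 3.34e-04). That call held in all 9 alternatives, all but 1 of them balanced.

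**Figure D5:**
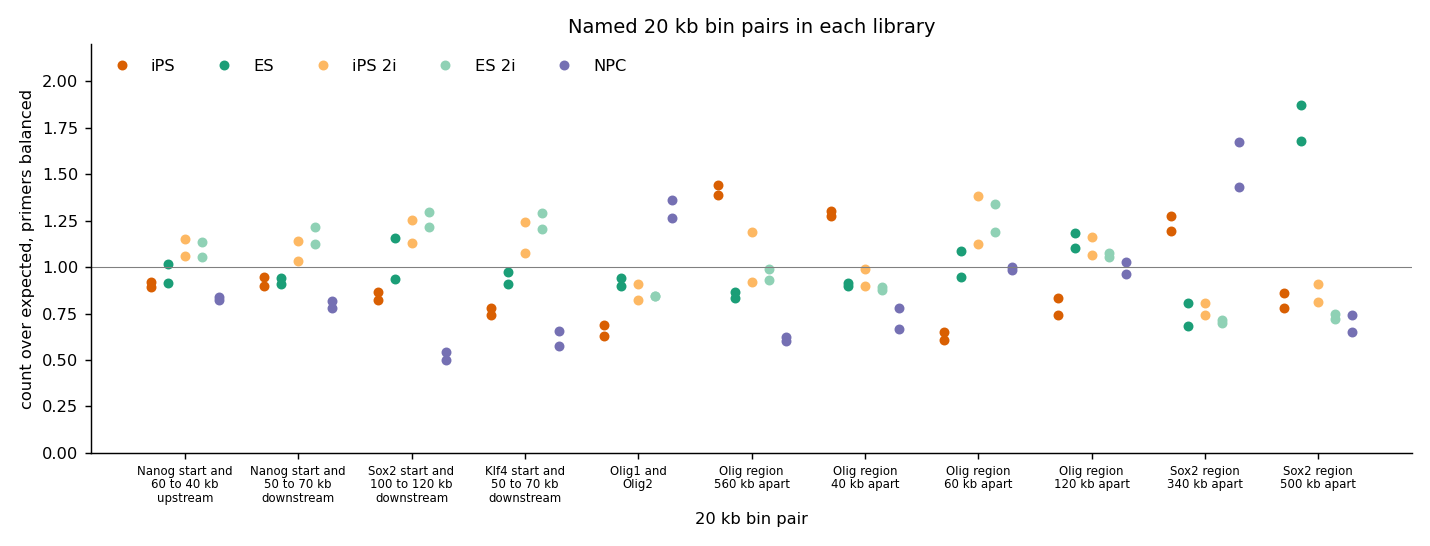
Balanced ratio of observed to expected counts in each of the 10 libraries, for the 5 bin pairs described whatever their values and 6 called bin pairs of the Olig and Sox2 regions. Points are libraries, coloured by group. Both iPS points lie below both ES points for Olig1 with Olig2 and for the Sox2 start with 100 to 120 kb downstream, and the points of the groups overlap for the bin pair 50 to 70 kb downstream of the Nanog start.

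In the Nanog region the windows around the gene showed no called difference after balancing. Between the gene's bin and the one 40 to 60 kb upstream, the balanced ratio was 0.893 and 0.922 in iPS cells and 1.01 and 0.915 in ES cells, a difference of -0.09 (adjusted p = 0.603). With the one 50 to 70 kb downstream it was 0.897 and 0.946 in iPS and 0.941 and 0.908 in ES cells, a difference of -0.01 (adjusted p = 0.981). Both windows overlapped between the groups after balancing. Before it, the upstream window was called, at -0.56 (adjusted p = 0.0189). Its ratios were then 0.666 and 0.787 in iPS and 1.11 and 1.03 in ES cells. The downstream window was at -0.31 before balancing and not called (adjusted p = 0.175), also without overlap. Elsewhere in the region, the bin holding the start of Phc1, which encodes a Polycomb protein, had ratios of 0.706 and 0.748 with a bin 440 kb away in iPS cells, and 1.18 and 1.18 in ES cells. The difference was -0.69 ± 0.12 (adjusted p = 0.0457), with NPC at -0.80.

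A bin pair of few counts, chr6:122706812 with chr6:123126812, had 94 and 165 counts in iPS cells and 46 and 33 in ES cells and rose by 2.18 (adjusted p = 0.0317). A fragment of Gdf3, a ligand of the TGF-beta family, had 13 and 27 counts in iPS cells with one 569 kb away, against 234 and 197 in ES cells and 5 to 18 in the other 6 libraries. That pair fell by 3.17 ± 0.44 (adjusted p = 0.0150), and there too the ES libraries alone stood apart. Of the 54 bin pairs of the Nanog gene's bin, 6 were higher and 4 lower before balancing and 0 were called after it.

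Klf4 had lower values in iPS cells with its downstream window, without a call. Counts between the Klf4 bin and the one 50 to 70 kb downstream were 765 and 834 in iPS cells and 2708 and 2432 in ES cells. Balanced ratios were 0.742 and 0.779 in iPS cells and 0.973 and 0.910 in ES cells, a difference of -0.31 ± 0.10 (adjusted p = 0.193), with NPC minus ES cells at -0.62. The groups did not overlap, but the difference did not pass the test over 10916 bin pairs. In the Klf4 region, the boundary at chr4:54976446 was lower by 0.12 (adjusted p = 0.0365).

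In the Oct4 region, the boundary within 20 kb of the start of Pou5f1 (chr17:35628607) was crossed less in iPS cells, with ratios of 0.924 and 0.873, against 1.06 and 1.10 in ES cells. The difference was -0.27 ± 0.05 (adjusted p = 0.0158), and -0.83 before balancing (adjusted p = 0.0160). The boundary within 20 kb of H2-Q8, a class I histocompatibility gene, was crossed more, with 1.38 and 1.42 in iPS and 0.930 and 0.957 in ES cells (0.57 ± 0.12, adjusted p = 0.0158). Of 89 bin pairs of the Pou5f1 start, 13 were higher and 1 lower before balancing and 0 were called after it.

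Away from Pou5f1, the neighbouring bins at chr17:34608607 and chr17:34628607 had 0.677 and 0.710 in iPS and 0.951 and 0.885 in ES cells (-0.40, adjusted p = 0.0457). The iPS libraries were below all others there, and lying below the ES libraries was a condition for naming it. A fragment of Bat1a, which encodes an RNA helicase of splicing and mRNA export, had 1407 and 1245 counts with the fragment at chr17:35389291 in iPS cells and 1406 and 1201 in the deeper ES libraries. Balanced ratios were 1.41 and 1.49 in iPS and 0.781 and 0.852 in ES cells (0.83, adjusted p = 0.0485).

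The Nestin region, a locus of neural genes, had 4 boundaries higher and 2 lower of 51 (11.8%) and no called pair or bin pair after balancing. The boundaries at chr3:88062064 and at chr3:88082064, the second by Cct3, which encodes a chaperonin subunit, rose most, by 0.19 each (adjusted p = 8.06e-04 for both). Their ratios were 1.01 and 1.01 in iPS cells and 0.892 and 0.883 in ES cells at the first, and 1.02 and 1.01 in iPS and 0.885 and 0.895 in ES cells at the second. Neither was called before balancing. The boundary by Etv3, an ETS family repressor, had ratios of 0.897 and 0.922 in iPS cells and 1.02 and 1.01 in ES cells (-0.16 ± 0.03, adjusted p = 0.0158). The one by Pmf1, a kinetochore protein gene, had 1.07 and 1.06 in iPS and 1.00 and 0.999 in ES cells (0.09 ± 0.02, adjusted p = 0.0365). At all 4, the 2 iPS libraries lay on one side of the 2 ES libraries. Of 50 bin pairs of the Nes start, 4 were higher and 0 lower before balancing, and 0 were called after it.

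Short spans made up a smaller share of the counts in the iPS libraries of every region. Spans under 100 kb held 62.0% and 60.1% of within-region counts in iPS cells, against 66.6% and 63.8% in ES cells. Spans of 100 to 500 kb held 30.3% and 31.2% in iPS and 25.7% and 28.1% in ES cells, a mean difference of 3.85 points. The groups did not overlap in either class, but the exact two-sided permutation test of 2 against 2 libraries gave 0.333, the smallest p it allows. Spans over 500 kb held 7.64% and 8.74% in iPS and 7.66% and 8.10% in ES cells, which overlapped. In each of the 7 regions both iPS libraries had a lower share under 100 kb than both ES libraries, with mean differences of -5.22 points in the Sox2 region and -1.45 points in the gene desert. NPC were at 77.6% and 77.2% under 100 kb.

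The same lines in 2i gave no call. With edgeR, 0 of 10916 bin pairs differed between iPS and ES cells in 2i (0%), with 905 at an unadjusted p below 0.05 before balancing and 372 after it. No pair, boundary or primer was called either, with 3907, 80 and 200 below 0.05 before balancing. The 751 bin pairs that were higher in iPS than in ES cells had a median difference of 0.98, and of -0.14 in 2i, where 223 of them were above 0 against 47.7% of all bin pairs. The 280 lower ones had a median of -0.79, and of 0.10 in 2i. The difference between the contrasts itself was called for 573 bin pairs (5.25%), 92 boundaries (25.6%) and 287 primers (18.6%) before balancing. After it, 1 bin pair (0.00916%), that at chr16:90731387 with the next bin (-0.69, adjusted p = 0.0327), and 17 boundaries (4.74%) were called.

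The boundary by Pou5f1 was one of those. It fell by 0.27 in iPS cells outside 2i, and iPS minus ES cells was 0.07 in 2i, a difference of differences of -0.34 (adjusted p = 0.0301). At the boundary by Pmf1 it was 0.17 (adjusted p = 0.0149). For the Sox2 start with its bin 80 kb downstream, iPS minus ES cells was -0.09 in 2i, and at Olig1 with Olig2 0.04. At the 9 bin pairs named by rule, the difference of differences did not pass the test after balancing. Before it, it was called at chr6:122706812 with chr6:123126812 (2.33, adjusted p = 0.0274) and chr17:34608607 with the next bin (-1.34, adjusted p = 0.0153). It was also called at chr16:90671387 with chr16:90731387 (-0.94, adjusted p = 0.0402) and chr3:34447374 with chr3:34947374 (-1.39, adjusted p = 0.0239), and not at the others. A difference between media is thus not shown for them once primers are balanced.

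The authors also deposited a binned table, with overlapping 20 kb bins at steps of 4 kb and values on a log scale whose base is not given in the sources used here. In it, limma called 3958 bin pairs higher and 4761 lower in iPS than in ES cells, 5.7% of 152941. With each library's mean at each region and distance subtracted, 6260 were higher and 5331 lower, so the balance of directions turned. In 2i it called 0 (0%) in both versions. As deposited, the number of calls between iPS and ES cells fell when any one of their 4 libraries was left out. It fell least without iPS replicate 1, and each such fit leaves 1 library in a group. The authors' deposited table of classes for 32065 bin pairs, made from the iPS, ES and NPC libraries, put 1436 (4.48%) in a class for iPS cells alone and 2592 (8.08%) in one for ES cells alone. Since these libraries chose the classes, their values outside 2i are a description. The class for iPS cells had a median iPS minus ES difference of 0.72 on the deposited log scale, and -0.12 in 2i. The class for ES cells had -0.78, and 0.08 in 2i. Neither class thus kept its direction in the 2i libraries, by the median.

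Many genes of the regions differed in RNA between iPS and ES cells. Over all transcript models, 2862 were higher and 2968 lower in iPS than in ES cells (52.9% of 11031, 25.9% higher and 26.9% lower), and of 104 tested genes in the 7 regions 40 were higher and 24 lower. Sox2 had 98.6 and 111 CPM (counts of a model after scaling libraries to 1 size) in iPS cells, against 491 and 587 CPM in ES cells, and fell by 2.202 ± 0.144 on the log2 scale (adjusted p = 8.71e-14). It also fell in 2i, by 0.75. Pou5f1 had 3472 and 2768 CPM in iPS and 1195 and 1138 CPM in ES cells, and rose by 1.58. Klf4 rose by 1.84, with 319 and 266 CPM in iPS and 86.3 and 96.8 CPM in ES cells.

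The transcript model at the place of Nanog is listed as Nanogpd, and it is not known here if its counts stand for Nanog. It had 3.12 and 3.88 CPM in iPS and 40.2 and 22.8 CPM in ES cells, and fell by 3.00 (adjusted p = 1.18e-10). Olig2 had 14.5 and 13.3 CPM in iPS and 32.0 and 35.4 CPM in ES cells and fell by 1.10, while Olig1 had a difference of -0.07 (adjusted p = 0.795). In the Nestin region, Crabp2, which encodes a retinoic acid binding protein, had 300 and 370 CPM in iPS and 18.3 and 16.6 CPM in ES cells. It rose by 4.37 (adjusted p = 1.11e-19) and by 4.25 in 2i. Lmna, the gene of lamins A and C, rose by 2.82, and Zfp462, a zinc finger gene of the Klf4 region, fell by 1.28. Bcan, the gene of brevican, had a difference of -0.39 (adjusted p = 0.575), Nes 0.62 (adjusted p = 0.417) and Phc1 -0.50 (adjusted p = 0.146).

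Marker genes were read in the RNA libraries, which are separate from the 5C libraries. Of 10 pluripotency markers, 8 had a model, and 2 were higher and 6 lower in iPS cells, where 25.9% of all models were higher and 26.9% lower. Their summed levels were 5955 and 5478 CPM in iPS, 6916 and 6501 CPM in ES cells and 10.4 and 9.60 CPM in NPC. Pou5f1, which with Klf4 was higher, made up 3472 and 2768 CPM of the iPS sums and 1195 and 1138 CPM of the ES sums. Among the 6 lower, Dppa4 and Esrrb fell most, at -3.32 and -2.91. Their levels were low, with 10.8 and 8.04 CPM and 4.57 and 4.29 CPM in ES cells. Dppa5a and Tdh differed by -1.24 and -1.76. Of 10 neural progenitor markers, 6 had a model, and 2 were higher and 2 lower, with sums of 293 and 280 CPM in iPS, 100 and 107 CPM in ES cells and 8378 and 9188 CPM in NPC. Sox1, a factor of early neural cells, was the marker with the largest rise, with 240 and 228 CPM in iPS and 23.0 and 23.9 CPM in ES cells. It made up most of the iPS sum and had only 83.4 and 96.0 CPM in NPC. Acsbg1 also rose, by 2.68, Olig2 and Ncan differed by -1.10 and -0.77, and Olig1 and Nes were not called. Of 10 feeder fibroblast markers, 7 had a model, and 6 were higher and 0 lower, with sums of 2491 and 2849 CPM in iPS and 1295 and 1463 CPM in ES cells. Acta2 and Tagln made up most of these sums, with 1386 and 1596 CPM and 580 and 725 CPM in iPS cells. They rose by 1.10 and 0.79, and Col1a1, a collagen gene, rose by 2.49. The part of feeder and neural RNA, and of cells that carry it, in the contact differences was not tested.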

How the data were processed

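Counts of reads per pair of 5C primers and counts of reads per transcript model were deposited by the authors, with Bowtie and mm9 (5C) and TopHat, TopHat2 2.1.0, HTSeq and mm9 (RNA) named in the submitters' processing notes. The authors also deposited binned contacts on a log scale, handled here as log2 although the base is not given in the sources used here. Their slope on log2 mean counts over 29 distance classes was 0.779, between the 0.693 of a natural log and the 1 of log2, so their differences are given without folds. They also deposited class labels per bin pair. Coordinates are mm9, counted from 1.

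The 5C counts were fitted with edgeR 4.0.16 in R 4.3.3 (quasi-likelihood F test, prior count 2) with all 10 libraries in 1 model by group (5 residual degrees of freedom). Benjamini-Hochberg adjustment ran over all features of a kind, at a threshold of 0.05. Offsets were expected counts from 20 distance strata per region. For balancing, they were fitted to the totals of each primer and stratum in 60 rounds, and these primer factors are not counted in the degrees of freedom, so p-values after balancing are too small by an amount not known here. Boundaries lay at least 40 kb from a region's edge. RNA was fitted with the same test and TMM scaling, and the binned table with limma 3.58.1. The steps were tested on simulated data.

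Named pairs and boundaries were the largest rise and fall of each region, and named bin pairs up to 3 of each with no bin used again in a direction. All were taken from those called with and without balancing, and were ranked by the difference before it. For pairs and bin pairs, but not boundaries, both iPS libraries also had to lie on one side of both ES libraries. Named pairs and bin pairs averaged at least 50 counts. Promoters and their windows were described whatever their values. The strand of Olig1 is not given in the sources used here, and its start was taken at the lower coordinate. The members and lists were chosen with earlier results of these data known, and primer totals, median scaling and the alternatives for balanced fits were added after seeing the data. Alternatives were other scalings, filters, strata, bin sizes and reaches, DESeq2 1.42.0, a replicate block, thinning, only the 4 libraries, and leaving out each replicate. Fragment sequences were not used here.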

Additional observations from a re-analysis of the deposited data

Results flagged for a closer look

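The difference between iPS and ES cells outside 2i was itself different from that in 2i by the test of that difference (edgeR, adjusted p below 0.05) for 573 bin pairs, 92 boundaries and 287 primers before balancing. After balancing, it was so for 1 bin pair and 17 boundaries. Before balancing, the number of these bin pairs fell without iPS replicate 2 or either ES replicate, and rose without iPS replicate 1. Each such fit leaves 1 library in a group. For the Sox2 region pair of the fragments at chr3:34900011 and chr3:34450023, the difference of differences was -3.55 (adjusted p = 9.20e-04), with 38 and 34 counts in iPS and 1295 and 1366 in ES cells, against 33 and 38 in iPS and 42 and 54 in ES cells in 2i. At the boundary by Pmf1 (chr3:88202064) it was 0.17 (adjusted p = 0.0149), and at the boundary by Pou5f1 (chr17:35628607) -0.34 (adjusted p = 0.0301). At both boundaries the iPS libraries lay to one side of the ES libraries outside 2i. In the Sox2 region the difference of differences was also called for the pairs at chr3:34204379 with chr3:34450023 (-2.06, adjusted p = 0.00278) and chr3:34693410 with its neighbour (1.12, adjusted p = 0.00573), and at 3 boundaries downstream of Sox2 (-0.17, 0.21 and 0.24, adjusted p = 0.0210, 0.0210 and 0.0103). In the Olig region it was called for the bin at chr16:90731387 with the next bin (-0.69, adjusted p = 0.0327) and at 2 boundaries past Olig2 (-0.20 and -0.19, adjusted p = 0.0366 and 0.0301). At the Nestin region boundaries chr3:88062064 and chr3:88082064 it was 0.28 and 0.30 (adjusted p = 8.89e-04 for both). The causes were not tested.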

How the results depend on the processing

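The number of calls changed much with the balancing and with leaving out a library, and the causes were not tested. A fit without a library leaves 1 library in a group. Pairs numbered 4080, and 15 with balancing, 18 with balancing and a replicate block. Balanced pairs numbered 156 with DESeq2, 33 with a filter of at least 50 and 8 in the 4 libraries alone. Bin pairs numbered 1031, 19 with balancing, 497 at 40 kb and 1938 at 10 kb. Balanced bin pairs numbered 153 with DESeq2, 29 with a filter of at least 50 and 80 at 40 kb. Boundaries numbered 94, 42 with balancing, 51 with median scaling and 165 with TMM scaling of whole libraries, 27 higher and 138 lower. Balanced boundaries numbered 89 with DESeq2 and 68 in the 4 libraries alone. Median scaling gave 5 higher and 46 lower boundaries, 116 higher and 170 lower primers and 2069 higher and 1701 lower pairs, in place of 60 and 34, 223 and 139, and 2957 and 1123. The bin pairs whose difference changed with 2i numbered 573, 1 with balancing, 937 with DESeq2, 862 with a replicate block and 302 with median scaling. The authors' binned values gave 5686 calls in their 6-library table.

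Leaving out 1 replicate gave 1048 to 2751 pairs, 174 to 689 bin pairs, 8 to 98 boundaries and 108 to 337 primers. Balanced, it gave 5 to 11 pairs, 1 bin pair each time and 8 to 12 boundaries. It gave 87 to 674 bin pairs for the change with 2i, 1298 to 5829 calls in the binned table and 47 to 58 genes for RNA. Primer totals fell to 130 calls without iPS replicate 2, 109 without ES replicate 1 and 108 without ES replicate 2. The share under 100 kb kept its direction, at -5.56 to -2.77 points, as did that of 100 to 500 kb, at 2.67 to 5.03, and that over 500 kb ran from -0.24 to 0.86.

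Same-numbered iPS and ES libraries correlated at -0.04 in their deviations from the group means. This was the lowest of 10 pairs of groups, and the highest was 0.16. Whether a replicate number marks a shared batch was not tested. With the number as a replicate block, 5032 pairs, 1391 bin pairs, 118 boundaries, 527 primers, 28 balanced bin pairs, 59 balanced boundaries and 63 genes for RNA were called. Over the alternatives of single named features, 651 values held their direction and side of the threshold, 267 lost their call, 11 gained one and 13 reversed. Features named by rule and windows had up to 21 alternatives, with and without balancing. The others had 9, all but 1 balanced, so these counts mix unlike sets. Without balancing, the Sox2 start with its bin 80 kb downstream turned to 0.22, Sox2 boundaries to 0.0314, -0.0682, -0.19 and -0.12, and Olig boundaries to 0.0467 and 0.0391. The Nanog window 50 to 70 kb downstream turned to 0.00308 in the 4 libraries alone, 0.00401 with a filter of at least 50, 0.0291 without iPS replicate 1 and 0.0210 without ES replicate 1. The Sox2 window 100 to 120 kb downstream turned to 0.0863 unbalanced without ES replicate 1, and the Sox2 region boundary at chr3:34327374, at 0.10, to -0.17 with TMM scaling alone. The called share fell with distance, the cause of which was not tested: 9.76% of pairs under 100 kb were called before balancing, against 2.93% over 500 kb.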
